A study of Mus musculus with 23 samples.

Results

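Ovary RNA was compared here for 8 genes that are nearly silent in NZO/HlLtJ mice and active in another strain, or the reverse: Sstr1, Mrap2, Zfp607, Paqr9, Ctnna2, Fggy, Islr2 and Eps8l1. They were picked by gene symbol from earlier results on these same libraries, as genes whose level in NZO/HlLtJ stood far from that in C57BL/6J, and they are 8 of the 24716 genes in the deposited count table. All 8 were among the 20189 genes that passed the filter on low counts. Because strain differences chose them, their levels by strain are given as a description, with no test. Tests are given for diet, which did not choose them, and for other genes of their families and of their chromosomal surroundings.

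The 23 libraries came from the ovary of wild-type females of 3 inbred strains with no further treatment. The diets began when mice were 6 weeks old, and ovaries were collected at an age of 15 weeks. C57BL/6J is the common laboratory strain and the source of the mouse reference genome, CAST/EiJ descends from wild mice of the subspecies castaneus, and NZO/HlLtJ (New Zealand Obese) becomes obese, with diabetes in part of the mice, through many loci. Each strain had a group on a control diet with 10% fat and fiber and a group on 44% fat with fiber, a diet also high in sugar, and the parts of fat and of sugar in any difference cannot be told apart. C57BL/6J on 10% fat had 3 libraries and each of the other 5 groups had 4. PolyA RNA was sequenced as 100 bp read pairs, and library totals lay between 31.9 and 45.9 M estimated counts. Levels below are CPM, the counts of a gene per 1 M counts of the TMM-scaled library total, with the SD over libraries.

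Granulosa cells (Foxl2 at 16.3 to 70.1 CPM, Amh at 27.8 to 165 CPM), oocytes (Zp3 at 12.1 to 60.9 CPM) and steroid-producing cells (Cyp11a1 at 871 CPM or more) were represented in every library. RNA of neighbouring tissue was uneven. Oviduct epithelium markers, 9 of the 10 listed being in the table, summed to 5177 CPM in CAST/EiJ 10% fat replicate 2 and 242 CPM in C57BL/6J 44% fat replicate 1, against 10.8 to 53.5 CPM in the other 21 libraries. In whole tissue, fewer cells of a type and less RNA per cell cannot be told apart.

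The 8 genes belong to no single pathway. Sstr1 encodes a somatostatin receptor, a G protein-coupled receptor that lowers cyclic AMP when somatostatin or cortistatin binds. Mrap2 encodes an accessory protein that binds melanocortin receptors and other G protein-coupled receptors and changes their signalling, and its loss causes obesity in mice. Paqr9 belongs to the progestin and adipoQ receptor family of membrane proteins, several of which bind progestins in reproductive tissue. Zfp607 encodes a KRAB zinc finger protein, of the large class that recruits the co-repressor Trim28 to DNA, often at transposable elements, and whose genes sit in clusters of near copies. Fggy encodes a carbohydrate kinase of the FGGY family. Ctnna2 encodes αN-catenin, which links cadherins to actin mainly in neurons, Islr2 encodes a leucine-rich repeat and immunoglobulin domain protein of developing axons, and Eps8l1 encodes an actin regulator related to the growth factor receptor substrate Eps8.

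All 8 are protein-coding genes with positions on GRCm38. Sstr1 (ENSMUSG00000035431) lies at chr12:58211772-58214444 on the plus strand, Zfp607 (ENSMUSG00000020420, named Zfp607a in GENCODE and RefSeq) at chr7:27857527-27880825 on the plus strand, and Eps8l1 (ENSMUSG00000006154) at chr7:4460674-4480487 on the plus strand. Fggy (ENSMUSG00000028573) lies at chr4:95557507-95926939 on the plus strand and Ctnna2 (ENSMUSG00000063063) at chr6:76881637-77979699 on the minus strand. Chromosome 9 holds 3 of them: Islr2 (ENSMUSG00000051243) at chr9:58196298-58204319 on the minus strand, Mrap2 (ENSMUSG00000042761) at chr9:87144306-87184045 on the plus strand and Paqr9 (ENSMUSG00000064225) at chr9:95559657-95568023 on the plus strand. Mrap2 and Paqr9 start 8.42 Mb apart.

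The 250 bases upstream of the start are shown for one gene of each pattern that the levels below take: Fggy, low in NZO/HlLtJ alone, Mrap2, low in C57BL/6J alone, and Islr2, highest in C57BL/6J with 1 CAST/EiJ library in its range. They are RefSeq windows of GRCm38.p6, the C57BL/6J sequence, read in the gene's direction; the windows are chr4:95557257-95557506 (plus), chr9:87144056-87144305 (plus) and chr9:58204320-58204569 (minus). Capitals mark the CCAAT box (CCAAT) and the GC box (GGGCGG), searched on both strands.
Fggy: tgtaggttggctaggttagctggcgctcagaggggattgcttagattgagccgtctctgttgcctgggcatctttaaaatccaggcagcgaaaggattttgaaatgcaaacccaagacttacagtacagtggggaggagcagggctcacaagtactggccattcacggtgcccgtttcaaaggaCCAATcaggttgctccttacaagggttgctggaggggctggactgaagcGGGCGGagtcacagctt
Mrap2: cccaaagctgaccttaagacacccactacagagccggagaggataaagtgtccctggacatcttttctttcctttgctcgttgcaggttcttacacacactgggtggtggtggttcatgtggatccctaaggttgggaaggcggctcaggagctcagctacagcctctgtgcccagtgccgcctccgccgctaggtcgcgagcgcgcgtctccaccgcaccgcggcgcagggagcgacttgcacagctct
Islr2: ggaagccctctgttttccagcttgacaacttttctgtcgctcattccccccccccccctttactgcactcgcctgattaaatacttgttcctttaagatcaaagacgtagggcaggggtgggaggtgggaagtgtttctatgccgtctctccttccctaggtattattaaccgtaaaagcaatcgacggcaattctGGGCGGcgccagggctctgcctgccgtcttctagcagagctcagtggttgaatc
The Fggy window holds 1 CCAAT box and 1 GC box with 7 CG dinucleotides, the Islr2 window 1 GC box with 10, and the Mrap2 window none of these boxes with 16. A median window of the 32851 in RefSeq has 6 CG dinucleotides, 33.8% hold CCAAT and 32.7% hold GGGCGG. The TATA box core (TATAAA, in 12.4% of all windows) and the cyclic AMP response element (TGACGTCA, in 1.55%) were searched too and are not in these 3 windows. RefSeq windows were matched for 6 of the 8 genes. The sequence of CAST/EiJ and NZO/HlLtJ at these sites was not used here.

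The genes differed in which strain stood apart. In Sstr1, Zfp607, Paqr9 and Fggy it was NZO/HlLtJ, whose 8 libraries overlapped neither the 7 of C57BL/6J nor the 8 of CAST/EiJ. In Mrap2 and Ctnna2 it was C57BL/6J, while CAST/EiJ and NZO/HlLtJ overlapped. In Islr2 and Eps8l1 C57BL/6J had the highest mean and did not overlap NZO/HlLtJ, but 1 CAST/EiJ library reached into its range for each gene, and CAST/EiJ and NZO/HlLtJ overlapped. For these 4 genes the description as switched on or off in NZO/HlLtJ does not single out that strain. NZO/HlLtJ and C57BL/6J did not overlap in 8 of 8 genes, where 7.79% of all genes tested did not, and 1.2% did not while also differing at least 8 times in mean. NZO/HlLtJ and CAST/EiJ did not overlap in 4 of the 8, where 16.8% of all genes did not, and CAST/EiJ and C57BL/6J in 2 of the 8, Mrap2 and Ctnna2, where 15.9% did not. These shares are given as background, since the genes were chosen on such differences. Whether reads were aligned to the sequence of each strain is not given in the sources used here, so a low level in NZO/HlLtJ or CAST/EiJ, and the fold that rests on it, may include reads that did not align to the C57BL/6J reference; this was not tested.

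**Figure D1:**
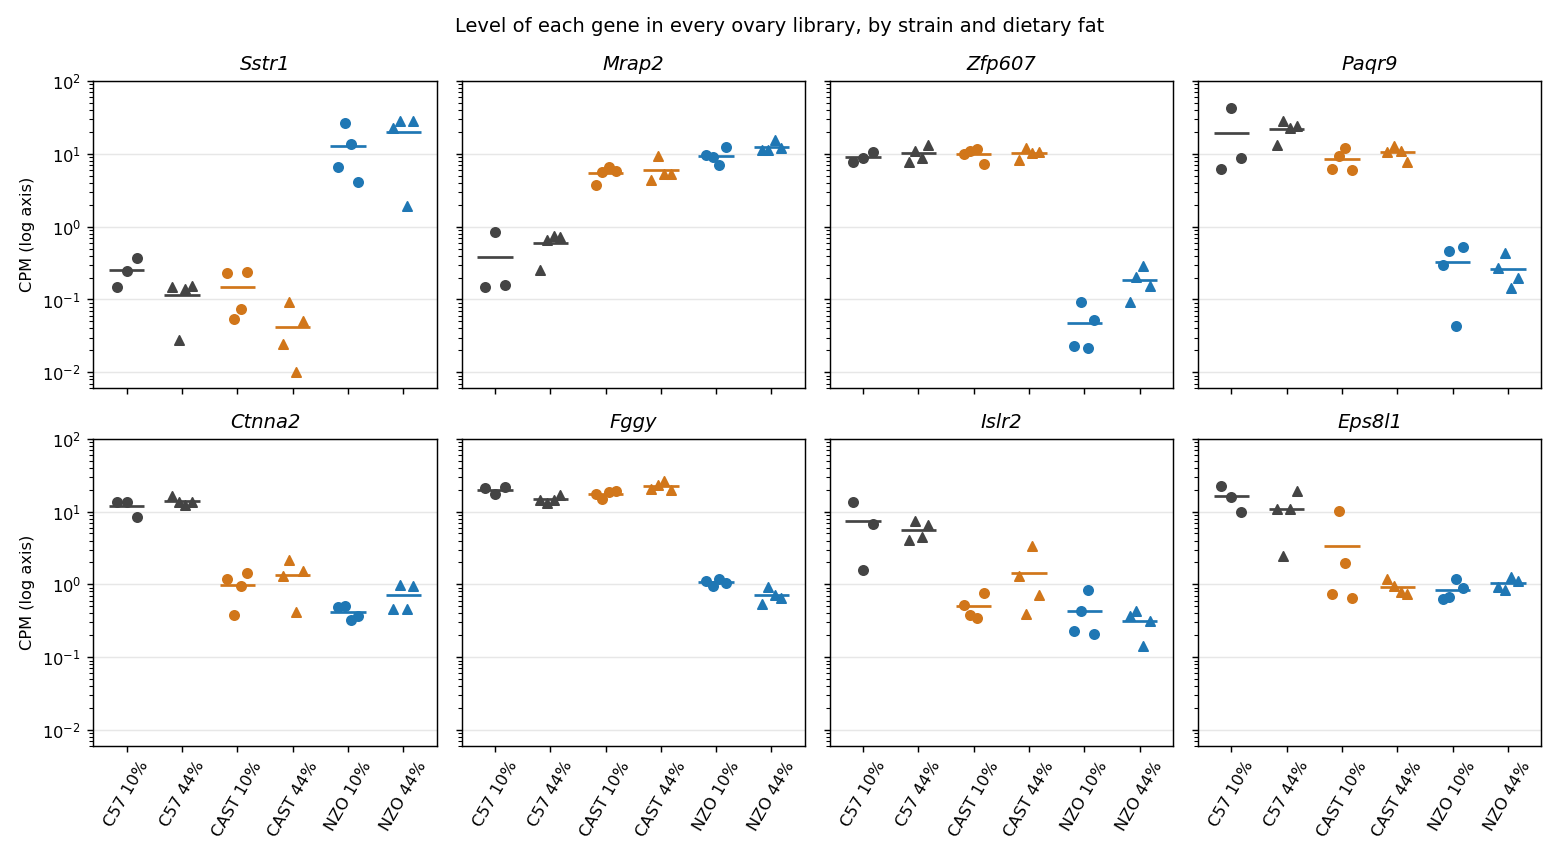
CPM (log axis) of each of the 8 genes in every library, by group; C57, CAST and NZO stand for C57BL/6J, CAST/EiJ and NZO/HlLtJ, percentages are dietary fat, circles are 10% and triangles 44% fat, and bars are group means. The library of CAST/EiJ 44% fat with 0 counts of Sstr1 is drawn at 0.01 CPM. NZO/HlLtJ libraries stand apart from both other strains in Sstr1, Zfp607, Paqr9 and Fggy, and C57BL/6J libraries stand apart in Mrap2 and Ctnna2.

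The somatostatin receptor Sstr1 was the one gene of the 8 that was high in NZO/HlLtJ alone. On 10% fat the NZO/HlLtJ libraries held 6.59, 26.4, 13.7 and 4.16 CPM, and on 44% fat 22.6, 28.0, 1.92 and 28.0 CPM. C57BL/6J held 0.149, 0.245 and 0.375 CPM on 10% fat and 0.150, 0.0282, 0.138 and 0.151 CPM on 44% fat. CAST/EiJ held 0.235, 0.0543, 0.0745 and 0.237 CPM on 10% fat and 0.0243, 0.0915, 0 and 0.05 CPM on 44% fat. The lowest NZO/HlLtJ library, 44% fat replicate 3 with 67 counts, still lay above the highest of any other strain, which had 12 counts. Means were 16.4 ± 11.2 CPM in NZO/HlLtJ (SD, n = 8), 0.177 ± 0.108 CPM in C57BL/6J (n = 7) and 0.0957 ± 0.0908 CPM in CAST/EiJ (n = 8), that is 93.0-fold and 171.6-fold higher in NZO/HlLtJ. C57BL/6J and CAST/EiJ overlapped, and with 0 to 12 counts per library their order is not resolved.

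Sstr1 also varied more within NZO/HlLtJ than any other of the 8 genes, by 14.6 times from the lowest library to the highest. Both diets held high and low libraries. The lowest, 44% fat replicate 3, also had the lowest luteal marker score of its strain, -0.97 on the log2 scale against -0.22 to 0.12 in the other 7; a score is the median, over the listed markers, of how far log2 CPM lay from that of the middle library. All 8 luteal markers were in the table, none at 0 in a whole group, and they summed to 7469 to 10409 CPM on 44% fat and 7565 to 9590 CPM on 10% fat in NZO/HlLtJ. Luteal markers were not the only ones to set NZO/HlLtJ 44% fat replicate 3 apart. It also had the lowest endothelium (-0.24) and glia scores (-0.30) of its strain. Its white adipocyte (2.35), theca (0.13), smooth muscle (-0.34) and surface mesothelium scores (-0.10) were the highest of its strain. The part of any of these cell types in the Sstr1 level was not tested.

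The receptor accessory protein Mrap2 was low in C57BL/6J alone. C57BL/6J libraries held 0.149, 0.834 and 0.156 CPM on 10% fat and 0.258, 0.648, 0.747 and 0.729 CPM on 44% fat. CAST/EiJ held 3.71, 5.68, 6.58 and 5.73 CPM on 10% fat and 4.35, 9.27, 5.33 and 5.27 CPM on 44% fat. NZO/HlLtJ held 9.51, 9.02, 6.97 and 12.2 CPM on 10% fat and 11.2, 11.3, 15.6 and 12.1 CPM on 44% fat. Every library of CAST/EiJ and NZO/HlLtJ lay above every library of C57BL/6J, while the highest of CAST/EiJ reached into the range of NZO/HlLtJ. Means were 0.503 ± 0.302 CPM in C57BL/6J (n = 7), 5.74 ± 1.67 CPM in CAST/EiJ (n = 8) and 10.99 ± 2.57 CPM in NZO/HlLtJ (n = 8). The level in NZO/HlLtJ was 21.9-fold that in C57BL/6J and 1.92-fold that in CAST/EiJ, and CAST/EiJ was 11.4-fold above C57BL/6J.

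Paqr9, of the progestin and adipoQ receptor family, was nearly silent in NZO/HlLtJ. NZO/HlLtJ libraries held 0.299, 0.458, 0.0434 and 0.524 CPM on 10% fat and 0.273, 0.433, 0.143 and 0.199 CPM on 44% fat, or 2 to 20 counts each. C57BL/6J held 6.23, 42.7 and 8.90 CPM on 10% fat and 13.2, 28.1, 22.7 and 23.9 CPM on 44% fat. CAST/EiJ held 6.15, 9.35, 12.02 and 5.99 CPM on 10% fat and 10.6, 12.9, 10.8 and 7.72 CPM on 44% fat. No NZO/HlLtJ library came near the other strains, which overlapped each other. Means were 20.8 ± 12.6 CPM in C57BL/6J (n = 7), 9.44 ± 2.61 CPM in CAST/EiJ (n = 8) and 0.296 ± 0.166 CPM in NZO/HlLtJ (n = 8), a level 70.2-fold below C57BL/6J and 31.9-fold below CAST/EiJ.

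The zinc finger gene Zfp607 was the least expressed of the 8 in NZO/HlLtJ. The 8 NZO/HlLtJ libraries had 35 counts in all, 1 to 10 each: 0.0230, 0.0916, 0.0217 and 0.0524 CPM on 10% fat and 0.0909, 0.202, 0.287 and 0.155 CPM on 44% fat. C57BL/6J held 7.62, 8.81 and 10.8 CPM on 10% fat and 7.68, 11.02, 8.74 and 13.1 CPM on 44% fat. CAST/EiJ held 9.83, 10.9, 11.8 and 7.33 CPM on 10% fat and 8.17, 11.9, 10.3 and 10.7 CPM on 44% fat. The other strains had nearly the same level and overlapped, at 9.68 ± 2.03 CPM (n = 7) and 10.1 ± 1.64 CPM (n = 8), against 0.115 ± 0.0932 CPM in NZO/HlLtJ (n = 8), which was 83.9-fold and 87.7-fold lower. For scale, 3 counts in a library correspond to 0.0644 to 0.0937 CPM. The values of Zfp607 are less certain than those of the other 7 genes: its estimated counts were not whole numbers in 18 of 23 libraries, and those of the other 7 genes were whole in all 23. In estimated counts, values that are not whole arise where a read is divided between genes.

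The carbohydrate kinase gene Fggy had even levels within strains, with its highest library at most 2.15 times its lowest, and was low in NZO/HlLtJ alone. C57BL/6J held 21.0, 17.3 and 21.6 CPM on 10% fat and 14.5, 13.1, 14.4 and 16.8 CPM on 44% fat. CAST/EiJ held 17.5, 14.7, 18.5 and 18.9 CPM on 10% fat and 20.6, 23.4, 26.4 and 19.6 CPM on 44% fat. NZO/HlLtJ held 1.13, 0.938, 1.17 and 1.05 CPM on 10% fat and 0.546, 0.923, 0.716 and 0.643 CPM on 44% fat. All 8 NZO/HlLtJ libraries lay far below the rest, at 18 to 54 counts each, while C57BL/6J and CAST/EiJ overlapped. Means were 17.0 ± 3.28 CPM in C57BL/6J (n = 7), 19.95 ± 3.59 CPM in CAST/EiJ (n = 8) and 0.889 ± 0.231 CPM in NZO/HlLtJ (n = 8), 19.1-fold and 22.4-fold lower.

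Ctnna2, of cadherin and actin contacts, was high in C57BL/6J alone. C57BL/6J held 13.6, 13.6 and 8.46 CPM on 10% fat and 16.1, 13.5, 12.4 and 13.6 CPM on 44% fat. CAST/EiJ ranged from 0.380 to 2.16 CPM and NZO/HlLtJ from 0.326 to 0.981 CPM. Both lay below every library of C57BL/6J and overlapped each other. Means were 13.0 ± 2.31 CPM (n = 7), 1.16 ± 0.589 CPM (n = 8) and 0.566 ± 0.255 CPM (n = 8), so that C57BL/6J was 11.2-fold above CAST/EiJ and 23.1-fold above NZO/HlLtJ.

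The axonal protein gene Islr2 was also highest in C57BL/6J, with wider spread. C57BL/6J held 13.5, 1.59 and 6.84 CPM on 10% fat and 4.10, 7.44, 4.54 and 6.56 CPM on 44% fat. CAST/EiJ ranged from 0.348 to 3.34 CPM and NZO/HlLtJ from 0.143 to 0.825 CPM. NZO/HlLtJ lay below all of C57BL/6J, while CAST/EiJ overlapped C57BL/6J through its highest library, 44% fat replicate 3, and overlapped NZO/HlLtJ too. Means were 6.37 ± 3.74 CPM (n = 7), 0.972 ± 1.01 CPM (n = 8) and 0.369 ± 0.212 CPM (n = 8), 6.55-fold and 17.3-fold below C57BL/6J for CAST/EiJ and NZO/HlLtJ. Without CAST/EiJ 44% fat replicate 3 the CAST/EiJ mean was 0.634 ± 0.342 CPM (n = 7).

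The actin regulator Eps8l1 followed the same order. C57BL/6J held 22.8, 15.7 and 9.87 CPM on 10% fat and 11.01, 2.48, 10.98 and 19.5 CPM on 44% fat. CAST/EiJ held 0.727, 10.1, 1.96 and 0.657 CPM on 10% fat and 0.749 to 1.17 CPM on 44% fat, and NZO/HlLtJ ranged from 0.620 to 1.26 CPM. NZO/HlLtJ lay below all of C57BL/6J, and CAST/EiJ overlapped C57BL/6J through 10% fat replicate 2 alone. That replicate was also the library with the most oviduct and adipocyte marker RNA. Means were 13.2 ± 6.74 CPM in C57BL/6J (n = 7), 2.14 ± 3.25 CPM in CAST/EiJ (n = 8) and 0.935 ± 0.235 CPM in NZO/HlLtJ (n = 8), 14.1-fold below C57BL/6J. Without that replicate the CAST/EiJ mean was 0.999 ± 0.458 CPM (n = 7). C57BL/6J 44% fat replicate 1, with the second highest oviduct sum, had 11.01 CPM, near the middle of its strain. Its oviduct sum was 242 CPM, far below the 5177 CPM of CAST/EiJ 10% fat replicate 2. The part of oviduct RNA in the Eps8l1 level was not tested.

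Per kilobase of exon, levels can be set side by side between genes. In C57BL/6J Fggy (2.90 CPM per kb), Paqr9 (2.49), Eps8l1 (2.18), Zfp607 (2.13) and Ctnna2 (1.88) lay close together, followed by Islr2 at 1.08, and Mrap2 at 0.223 and Sstr1 at 0.0863 CPM per kb were far lower. In NZO/HlLtJ the order was turned over: Sstr1 at 8.03 and Mrap2 at 4.87 CPM per kb led, and the other 6 lay between 0.0254 (Zfp607) and 0.155 (Eps8l1) CPM per kb. CAST/EiJ shared high Fggy (3.41), Zfp607 (2.23) and Paqr9 (1.13) with C57BL/6J and high Mrap2 (2.54) with NZO/HlLtJ. Its Sstr1 level of 0.0468 CPM per kb was the lowest of its 8.

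Ctnna2 and Islr2 are known from neurons, and neuronal markers were sparse in every group. All 11 listed neuron markers were in the table and summed to 26.05 to 39.7 CPM in C57BL/6J on 10% fat, 32.5 to 41.8 CPM on 44% fat, 28.4 to 54.7 CPM over both diets in CAST/EiJ and 28.5 to 44.0 CPM in NZO/HlLtJ. The sums overlapped between all strains, and Tubb3 alone was at 10.6 to 29.8 CPM. Nefl was at 0 in all libraries of C57BL/6J on 10% fat and Snap25 in all of NZO/HlLtJ on 44% fat. All 7 glia markers were in the table, none at 0 in a whole group. They summed to 37.6 to 118.4 CPM in C57BL/6J, 28.1 to 37.9 CPM in CAST/EiJ and 36.6 to 73.3 CPM in NZO/HlLtJ. The highest sums were thus in C57BL/6J, the strain with the most Ctnna2 and Islr2. CAST/EiJ had the lowest sums, but its means of both genes were above those of NZO/HlLtJ, with overlapping libraries. C57BL/6J 10% fat replicate 2, with the lowest sum of its strain, held 13.6 CPM of Ctnna2 and 1.59 CPM of Islr2. As median scores, the glia markers of C57BL/6J and NZO/HlLtJ overlapped. Sox10, the defining glial factor among them, reached at most 0.258 CPM in any library. The part of glial RNA in the Ctnna2 and Islr2 levels was not tested.

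Within C57BL/6J, Mrap2, Paqr9 and Islr2 differed between the 3 libraries on 10% fat, and so did granulosa and several other marker lists. Replicate 2 had a granulosa score of 0.80 with 42.7 CPM of Paqr9, 0.834 CPM of Mrap2 and 1.59 CPM of Islr2. Replicates 1 and 3, both with a score of -0.60, had 6.23 and 8.90 CPM of Paqr9, 0.149 and 0.156 CPM of Mrap2 and 13.5 and 6.84 CPM of Islr2. Mrap2 and Paqr9 were thus high, and Islr2 low, in the library with the most granulosa RNA. The 10 granulosa markers summed to 1857 to 5452 CPM in that group and 2905 to 3454 CPM on 44% fat, and none was at 0 in any group. CAST/EiJ 10% fat replicate 2 had the lowest granulosa score of all, -1.44, with 5.68 CPM of Mrap2 and 9.35 CPM of Paqr9, inside the range of its strain. In replicates 1, 2 and 3 of C57BL/6J on 10% fat the oocyte markers summed to 134, 415 and 342.5 CPM. The neuroendocrine markers in the table summed to 8.81, 11.97 and 9.93 CPM. Both lists had the same order as Paqr9. The order of Islr2 was shared by the sums of glia (116.6, 37.6 and 59.5 CPM), luteal (16049, 11350 and 13617 CPM) and smooth muscle markers (2112, 1259 and 1479 CPM). Surface mesothelium (338, 197 and 273 CPM), endothelium (502, 360 and 399 CPM) and white adipocyte markers (527, 78.0 and 190 CPM) shared it too. With 3 libraries, many lists can share an order. The part of any of these cell types in the levels was not tested.

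**Figure D2:**
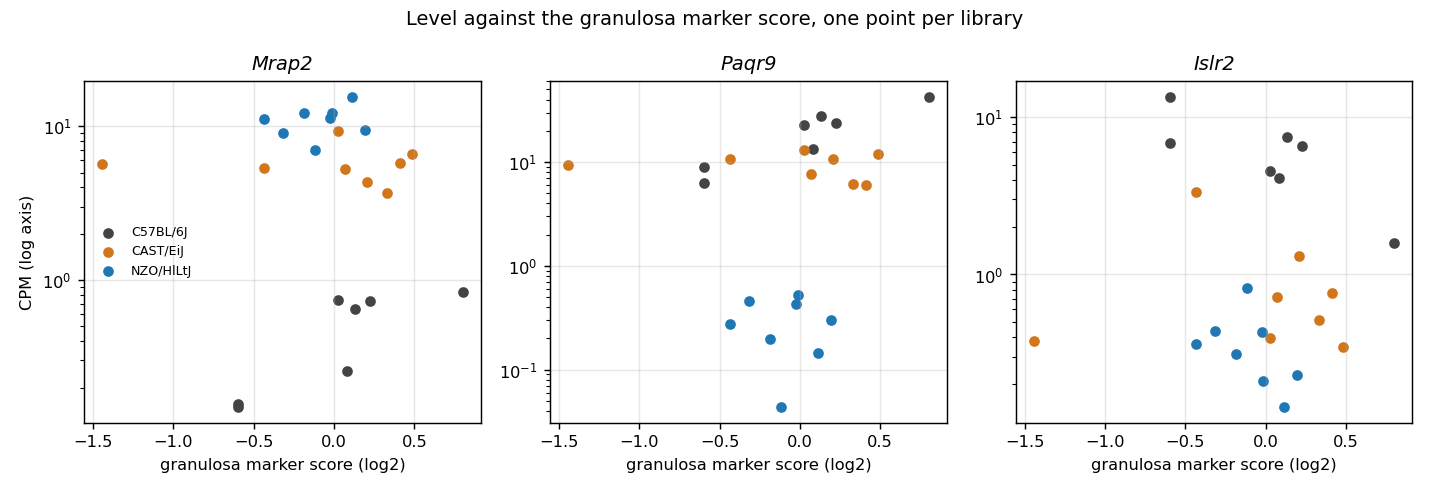
CPM (log axis) of Mrap2, Paqr9 and Islr2 against the granulosa marker score (log2, relative to the median library), one point per library, coloured by strain. C57BL/6J spans scores of -0.60 to 0.80, with Mrap2 and Paqr9 highest and Islr2 lowest at the right end.

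Over all 23 libraries, after each group's mean was taken off, Mrap2 and Paqr9 deviated together (Pearson r of 0.71 on log2 CPM), and both deviated against Islr2 (r of -0.62 and -0.51). Sstr1 and Ctnna2 had an r of 0.48, and the other 24 pairs lay between -0.38 and 0.37. These are descriptions over libraries that share their cell make-up and depth between genes. With group means left in, r was 0.97 for Zfp607 and Fggy and -0.94 for Sstr1 and Fggy, which restates the strain levels.

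Diet was tested in each strain with edgeR's quasi-likelihood test over all 20189 genes, with Benjamini-Hochberg adjustment. None of the 8 genes passed in C57BL/6J, CAST/EiJ or NZO/HlLtJ, where 0%, 0.624% and 0% of all genes passed. At an unadjusted p under 0.05 there was 1 of 8 in C57BL/6J (Fggy), 3 in CAST/EiJ (Fggy, Islr2 and Eps8l1) and 2 in NZO/HlLtJ (Fggy and Zfp607), and DESeq2 called 0 in each strain. The share of all genes at that unadjusted threshold is not given here, so these counts are no measure of a diet response. Whether the libraries are of different animals is not stated in the labels, so p-values here reflect only how far these libraries spread, part of which may be technical.

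Fggy was the one gene of the 8 whose diet groups were apart in each of the 3 strains, where 8.08%, 5.88% and 2.96% of all genes did not overlap in C57BL/6J, CAST/EiJ and NZO/HlLtJ. On 44% fat it was at 14.7 ± 1.53 CPM (n = 4) against 19.95 ± 2.30 CPM (n = 3) on 10% fat in C57BL/6J, and at 0.707 ± 0.160 CPM against 1.07 ± 0.102 CPM (n = 4 each) in NZO/HlLtJ. CAST/EiJ went the other way, at 22.5 ± 3.04 CPM against 17.4 ± 1.90 CPM (n = 4 each). The log2 fold changes were -0.44 (SE 0.14) in C57BL/6J, -0.60 (SE 0.16) in NZO/HlLtJ and 0.37 (SE 0.13) in CAST/EiJ, with edgeR adjusted p of 0.403, 1 and 0.187.

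The difference between strains in diet response was tested as an interaction. For Fggy it was 0.81 (SE 0.19) on the log2 scale between CAST/EiJ and C57BL/6J, with an edgeR adjusted p of 0.0552, just short of the threshold of 0.05, and -0.97 (SE 0.20) between NZO/HlLtJ and CAST/EiJ, with an adjusted p of 0.113. DESeq2 gave Fggy adjusted p of 0.00206 and 0.0196 for the same differences, and limma on the authors' variance-stabilised values gave 0.032 for the first. The edgeR adjusted p for CAST/EiJ against C57BL/6J was also under 0.05 without C57BL/6J 10% fat replicate 2 (0.0167), NZO/HlLtJ 10% fat replicate 3 (0.0428), CAST/EiJ 10% fat replicate 3 (0.0488) or CAST/EiJ 44% fat replicate 4 (0.0468), and over all alternatives it ranged from 0.00206 to 0.172. In edgeR none of the 8 genes passed for NZO/HlLtJ against C57BL/6J, NZO/HlLtJ against CAST/EiJ or CAST/EiJ against C57BL/6J, where 0%, 0.0149% and 0.614% of all genes did. At an unadjusted p under 0.05 there were 1 (Zfp607), 4 (Eps8l1, Zfp607, Fggy and Islr2) and 2 (Fggy and Islr2), and DESeq2 called 0, 1 and 1, Fggy in both. The shares of all genes at that unadjusted threshold, or called by DESeq2 or limma, are not given here. These counts therefore cannot be set against all genes.

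Among the other 7 genes the fitted diet differences ran from -1.87 to 1.90 on the log2 scale, each with a larger SE than Fggy had in any strain. Zfp607 in NZO/HlLtJ had a log2 fold change of 1.90 (SE 0.44, edgeR adjusted p of 1) between 0.0472 ± 0.0328 and 0.184 ± 0.0823 CPM (n = 4 each), which are 8 counts in all on 10% fat and 27 on 44% fat. In CAST/EiJ, Eps8l1 had a log2 fold change of -1.87 (SE 0.69, edgeR adjusted p of 0.211), and of -0.29 without 10% fat replicate 2. Islr2 in CAST/EiJ had one of 1.52 (SE 0.62, edgeR adjusted p of 0.275), and of 0.70 without 44% fat replicate 3, where it no longer had an unadjusted p under 0.05. For Sstr1 in NZO/HlLtJ the means were 12.7 ± 10.0 CPM on 10% fat and 20.1 ± 12.4 CPM on 44% fat (n = 4 each), a log2 fold change of 0.66 (SE 0.59, edgeR adjusted p of 1), well inside the spread between libraries. Mrap2 in C57BL/6J had a log2 fold change of 0.60 (SE 0.48, edgeR adjusted p of 0.737), and without 10% fat replicate 2, the library high in granulosa markers, it was 1.93 with an adjusted p of 0.0472.

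**Figure D3:**
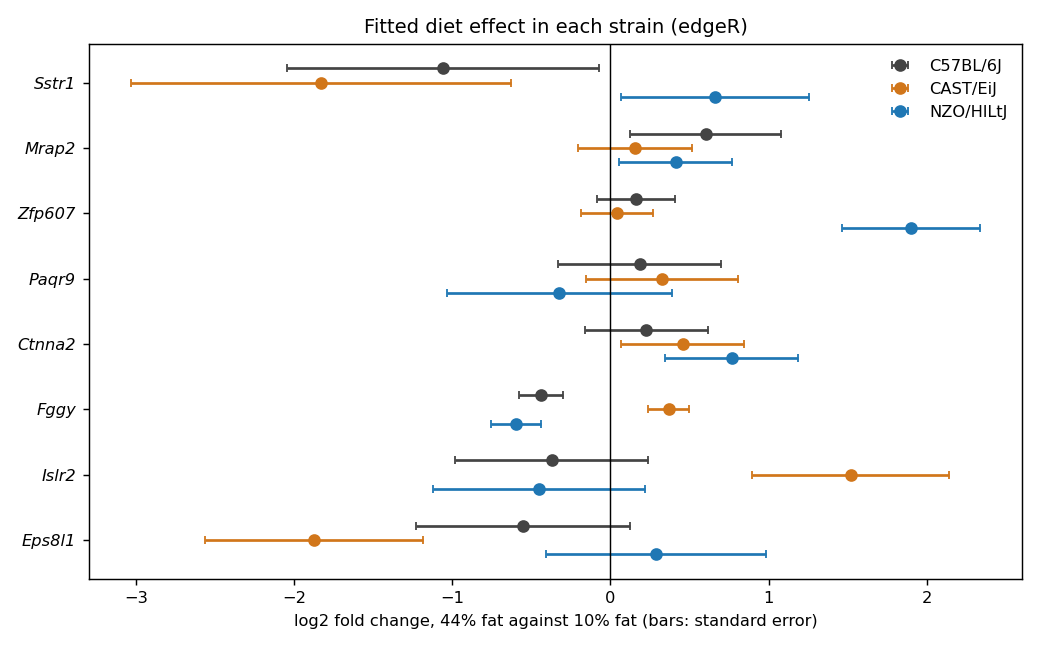
Fitted log2 fold change of 44% fat against 10% fat (edgeR) for each of the 8 genes in each strain, with standard errors as bars. Fggy has the smallest errors, with CAST/EiJ at 0.37 on the other side of 0 from C57BL/6J at -0.44 and NZO/HlLtJ at -0.60.

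Genes of the same families and pathways, 125 listed of which 110 were tested, were compared between strains, averaged over diets. Against C57BL/6J, 11 were higher and 14 lower in NZO/HlLtJ, or 22.7% called where 23.9% of all genes were (edgeR, Benjamini-Hochberg), with a median log2 difference of -0.01 against 0.00 over all genes. Against CAST/EiJ 17 were higher and 38 lower, or 50% where 48.1% of all genes were, with a median of -0.12 against -0.02. The first count was 16 without C57BL/6J 10% fat replicate 1 and 38 without CAST/EiJ 10% fat replicate 2. The share of all genes called in those fits is not given here and may have moved too. The NZO/HlLtJ libraries enter both comparisons.

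The partners of Sstr1 did not share its high level. Of 9 tested genes of somatostatin signalling 1 was higher and 3 were lower in NZO/HlLtJ than in C57BL/6J, or 44.4% where 23.9% of all genes passed. Against CAST/EiJ 0 were higher and 4 lower, or 44.4% where 48.1% of all genes passed. The sister receptor Sstr3 was at 2.60 ± 0.431 CPM in C57BL/6J (n = 7) and 1.28 ± 0.396 CPM in NZO/HlLtJ (n = 8), a log2 difference of -1.04 (SE 0.19, edgeR adjusted p of 0.000411), and Sstr2 and Sstr4 did not pass. Cort, which encodes the ligand cortistatin, was the one higher than in C57BL/6J but stayed near detection. It was at 0.00892 ± 0.0236 CPM in C57BL/6J, 0.123 ± 0.0467 CPM in NZO/HlLtJ and 0.470 ± 0.175 CPM in CAST/EiJ. The phosphatase Ptpn6, which acts downstream of somatostatin receptors, was at 12.2 ± 2.88 CPM in C57BL/6J and 7.04 ± 0.967 CPM in NZO/HlLtJ, and the inhibitory G protein subunit Gnai3 was lower by a log2 difference of -0.26 (SE 0.04).

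Around Mrap2, 0 of 6 tested genes of melanocortin and related receptor signalling passed between NZO/HlLtJ and C57BL/6J in edgeR, where 23.9% of all genes did. The paralog Mrap, the accessory protein of the ACTH receptor, was at 55.5 ± 32.5 CPM in C57BL/6J, 60.1 ± 50.5 CPM in CAST/EiJ and 28.8 ± 21.8 CPM in NZO/HlLtJ (edgeR adjusted p of 0.141 against C57BL/6J). Of the 16 listed genes only 10 were in the table. The 6 tested were Mrap, Pomc, Atrn, Atrnl1, Prokr1 and Prokr2. No melanocortin receptor was tested, since Mc1r and Mc5r did not pass the filter on low counts and no other was in the table.

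Among 15 genes of the family of Paqr9 and its fellow progestin and adiponectin receptors, 2 were higher and 2 lower in NZO/HlLtJ than in C57BL/6J, or 26.7% where 23.9% of all genes passed. Against CAST/EiJ 3 were higher and 9 lower, or 80% where 48.1% of all genes passed, with a median log2 difference of -0.39. In the other 7 lists 31.25% to 64.3% passed against CAST/EiJ. The genes named next are those that passed against C57BL/6J. The membrane progestin receptor Paqr6 was at 8.89 ± 1.44 CPM in NZO/HlLtJ (n = 8) against 4.24 ± 1.28 CPM in C57BL/6J (n = 7). That is a log2 difference of 1.09 (SE 0.16, edgeR adjusted p of 3.96e-05). The progesterone receptor membrane component Pgrmc1 was higher than in C57BL/6J by 0.20 (SE 0.05). Paqr7, another membrane progestin receptor, was lower in NZO/HlLtJ than in C57BL/6J, at 39.2 ± 5.79 CPM against 51.1 ± 6.37 CPM. So was the adiponectin receptor Adipor2, at 159 ± 15.4 CPM against 199 ± 16.0 CPM.

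Of 15 co-repressor genes of KRAB zinc finger proteins, such as Trim28 and Setdb1, 1 passed against C57BL/6J, or 6.67% where 23.9% of all genes did. That gene was Fam208a, which encodes a subunit of the HUSH silencing complex. It was higher in NZO/HlLtJ by a log2 difference of 0.28 (SE 0.10, edgeR adjusted p of 0.0497). Trim28 itself was at 287 ± 35.2 CPM in C57BL/6J and 289.8 ± 20.2 CPM in NZO/HlLtJ. Of 16 sugar kinases and pentose phosphate enzymes beside Fggy, 2 were higher and 3 lower than in C57BL/6J, or 31.25% where 23.9% of all genes passed. The glycerol kinase family gene Gk5 was at 32.4 ± 2.85 CPM in NZO/HlLtJ and 18.8 ± 2.61 CPM in C57BL/6J, and the lower ones were Tkt, Taldo1 and Pgls, of the pentose phosphate pathway, with log2 differences of -0.38, -0.40 and -0.31. The kinases Xylb and Shpk did not pass, with log2 differences of -0.07 and -0.01.

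Of 14 catenins and cadherins, 1 was higher and 4 lower in NZO/HlLtJ than in C57BL/6J, or 35.7% where 23.9% of all genes passed. The widely expressed paralog Ctnna1 was at 404 ± 29.6 CPM in C57BL/6J and 355 ± 16.7 CPM in NZO/HlLtJ, a log2 difference of -0.19 (SE 0.05, edgeR adjusted p of 0.00736), and Ctnna3 did not pass (0.38, edgeR adjusted p of 0.134). Of 21 genes related to Islr2, 2 were higher (Lrig2 and Lrrc4) and 1 lower (Amigo3), or 14.3% where 23.9% of all genes passed. Their log2 differences were 0.27, 0.47 and -0.56. Of 14 genes of the Eps8 family and its partners, 2 were higher (Abi2 and Sos1) and 1 lower (Rac1), or 21.4% where 23.9% of all genes passed. Each of the 3 differed by 0.20 or less on the log2 scale. Eps8, Eps8l2 and Eps8l3 did not pass, with log2 differences of -0.10, -0.01 and -0.64.

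Genes starting within 500 kb of one of the 8 were compared in the same way. A start here and below is the lower genome coordinate, whatever the strand. For Ctnna2 and Islr2, on the minus strand, distances therefore run from the downstream end. For Ctnna2 (chr6:76881637-77979699) the window did not reach its upstream end, whose surroundings were not compared. Of 114 tested, 15 were higher and 27 lower in NZO/HlLtJ than in C57BL/6J, or 36.8% where 23.9% of all genes passed, and against CAST/EiJ 26 were higher and 30 lower, or 49.1% where 48.1% of all passed. Neighbours of one gene share a stretch of chromosome and are not independent of each other.

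**Figure D4:**
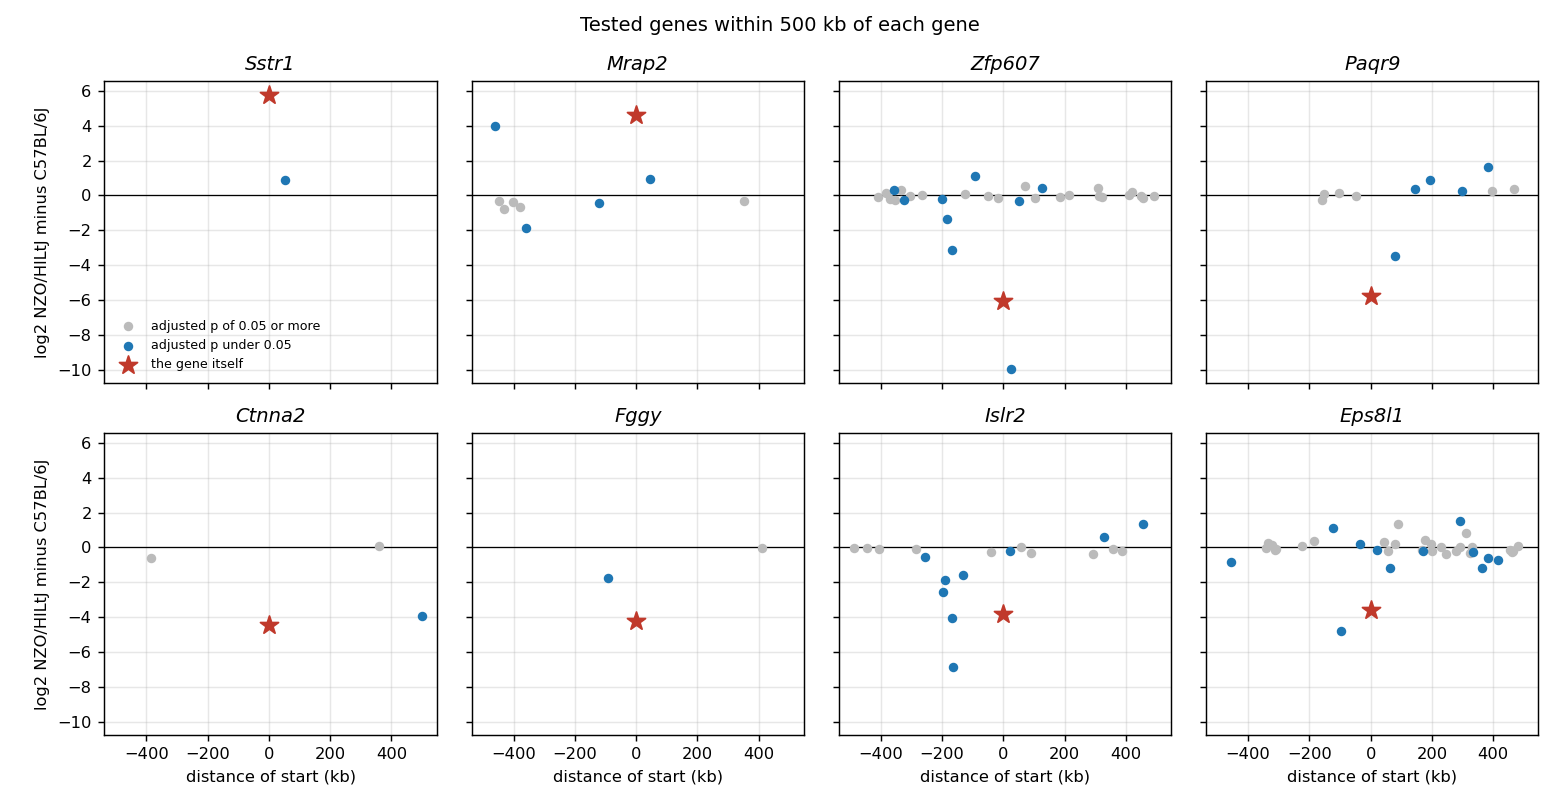
Log2 difference between NZO/HlLtJ and C57BL/6J of tested genes within 500 kb of each of the 8 genes, against the distance of their start in kb; blue points have an edgeR adjusted p under 0.05, grey points do not, and the star is the gene itself. A start is the lower genome coordinate, whatever the strand. The lowest point beside Zfp607 is a pseudogene with 0 counts in NZO/HlLtJ, whose fitted value depends on the fit's prior count. Most neighbours lie near 0, and a few beside Zfp607, Paqr9, Ctnna2, Islr2 and Eps8l1 lie below -3.

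Around Zfp607 a pair of other genes was low in NZO/HlLtJ too. The paralog C030039L03Rik, named Zfp607b in RefSeq and starting 168 kb before it (chr7:27689340-27706484), was at 5.77 ± 0.644 CPM in C57BL/6J (n = 7), 10.3 ± 1.63 CPM in CAST/EiJ (n = 8) and 0.665 ± 0.207 CPM in NZO/HlLtJ (n = 8), and passed against both (edgeR adjusted p of 3.51e-11 and 1.5e-13). The processed pseudogene RP23-73F23.5 (chr7:27882755-27884510, minus strand) starts 25.2 kb after the start of Zfp607 and lies within the RefSeq extent of Zfp607a, which ends at 27903063. It had 853 counts over C57BL/6J and 944 over CAST/EiJ, at 3.18 ± 0.736 and 3.10 ± 0.638 CPM, and 0 counts in 8 of 8 NZO/HlLtJ libraries, where 3 counts in a library would be 0.0651 CPM or more. Other zinc finger genes beside them were not low: Zfp60 was at 42.1 ± 3.60, 46.5 ± 3.71 and 44.9 ± 4.54 CPM in C57BL/6J, CAST/EiJ and NZO/HlLtJ, and Zfp59, which starts 18.9 kb before Zfp607, at 13.9 ± 1.20, 4.07 ± 0.838 and 12.3 ± 0.997 CPM. Estimated counts were not whole in 12 of 23 libraries for C030039L03Rik, 20 for Zfp60, 13 for Zfp59 and 23 for the pseudogene, so each level at this cluster is uncertain.

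Nearby Map3k10, Prx and 1700049G17Rik also passed against both strains, with log2 differences from C57BL/6J of -0.22, 0.32 and -0.33 and from CAST/EiJ of -0.23, 0.43 and -0.46. So did the pseudogene RP24-64B10.5, at 0.525 ± 0.224 CPM in NZO/HlLtJ, 0.242 ± 0.109 CPM in C57BL/6J and 0.00312 ± 0.00883 CPM in CAST/EiJ.

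The one tested gene within 500 kb of Sstr1 was Clec14a, an endothelial cell surface gene that starts 52.9 kb after it. Clec14a was at 54.2 ± 4.02 CPM in C57BL/6J (n = 7), 66.2 ± 6.27 CPM in CAST/EiJ (n = 8) and 102 ± 39.2 CPM in NZO/HlLtJ (n = 8), with log2 differences of 0.89 (SE 0.16) and 0.59 (SE 0.16) and edgeR adjusted p of 0.000479 and 0.00362. In NZO/HlLtJ the libraries held 68.2, 117.6, 76.1 and 68.2 CPM on 10% fat and 137.1, 158.8, 55.8 and 132.7 CPM on 44% fat, in the replicate order used for Sstr1. The 4 libraries with over 20 CPM of Sstr1 were the 4 with over 100 CPM of Clec14a, and 44% fat replicate 3 was lowest in both; this was looked at after the values were seen. The 6 endothelium markers summed to 325 to 402 CPM in NZO/HlLtJ, 360 to 545 CPM in C57BL/6J and 341 to 455 CPM in CAST/EiJ. The nearest tested gene on the other side of Sstr1, 4921506M07Rik, starts beyond that window and was at 0.517 ± 0.141 CPM in NZO/HlLtJ, 0.231 ± 0.118 CPM in C57BL/6J and 0.0955 ± 0.0675 CPM in CAST/EiJ (edgeR adjusted p of 0.0169 and 3.13e-05).

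Beside Mrap2, the next gene Cep162, a centrosomal protein gene starting 45.3 kb after it, was at 58.8 ± 4.49 CPM in NZO/HlLtJ (n = 8) against 30.8 ± 4.15 CPM in C57BL/6J (n = 7) and 35.7 ± 3.90 CPM in CAST/EiJ (n = 8), with edgeR adjusted p of 4.5e-08 and 2.76e-07. Cyb5r4, on the other side, was slightly lower in NZO/HlLtJ, by log2 differences of -0.41 (SE 0.07) and -0.29 (SE 0.07). Gm38230, an unclassified transcript also within 500 kb, followed the order of Mrap2 at 6.53 ± 2.21 CPM in NZO/HlLtJ, 0.885 ± 1.11 CPM in CAST/EiJ and 0.470 ± 0.632 CPM in C57BL/6J (edgeR adjusted p of 0.000956 and 0.000525).

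Beside Paqr9, the collagen-processing gene Pcolce2 was at 0.0574 ± 0.0487 CPM in NZO/HlLtJ (n = 8), 0.739 ± 0.997 CPM in C57BL/6J (n = 7) and 1.25 ± 1.98 CPM in CAST/EiJ (n = 8), with edgeR adjusted p of 0.00711 and 0.000282. Its highest libraries, at 2.93 CPM in C57BL/6J and 6.03 CPM in CAST/EiJ, lay far above those means. The part of oviduct RNA in its level was not tested. The antisense gene Gm28424 on the other side of Paqr9 did not pass against C57BL/6J (edgeR adjusted p of 0.941). The antisense gene Gm16794 near Paqr9 was higher in NZO/HlLtJ, at 6.22 ± 0.955 CPM against 1.99 ± 0.283 CPM in C57BL/6J and 3.69 ± 0.531 CPM in CAST/EiJ (edgeR adjusted p of 1.28e-08 and 3.92e-05). Of the 2 tested neighbours of Fggy, Hook1 did not pass against either strain, at 17.0 ± 2.07 CPM in NZO/HlLtJ, 17.9 ± 2.68 CPM in C57BL/6J and 20.4 ± 5.68 CPM in CAST/EiJ, and Gm830 was at 8.52 ± 5.61 CPM in C57BL/6J and 2.57 ± 1.32 CPM in NZO/HlLtJ (edgeR adjusted p of 0.0101).

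Inside Ctnna2, a gene of over 1 Mb, lie other annotated transcripts that followed its pattern at far lower levels. Gm44433 was at 0.996 ± 0.407, 0.0907 ± 0.0485 and 0.0370 ± 0.0317 CPM in C57BL/6J, CAST/EiJ and NZO/HlLtJ, and Gm44437 at 0.651 ± 0.154, 0.0472 ± 0.0434 and 0.00844 ± 0.0169 CPM. Both lie in introns on the same strand. The synaptic gene Lrrtm1, in an intron on the opposite strand, did not follow it, at 0.165 ± 0.0630, 0.561 ± 0.690 and 0.208 ± 0.264 CPM. Gm9008, the nearest tested gene on the other side, was high in CAST/EiJ, at 5.22 CPM against 0.0519 CPM in C57BL/6J and 0.0312 CPM in NZO/HlLtJ.

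Islr2 shares 181 exonic bases with its paralog Islr on the same strand. Islr was far more abundant and did not pass between NZO/HlLtJ and C57BL/6J, at 74.2 ± 26.03 CPM in C57BL/6J (n = 7), 58.5 ± 15.3 CPM in CAST/EiJ (n = 8) and 63.7 ± 11.3 CPM in NZO/HlLtJ (n = 8). Further along lies Cyp11a1, of the side chain cleavage enzyme that starts steroid synthesis, which is also one of the listed luteal markers. Cyp11a1 was at 1437 ± 479.6 CPM in NZO/HlLtJ against 5250.3 ± 968 CPM in C57BL/6J and 2681 ± 1375 CPM in CAST/EiJ. The log2 differences were -1.88 (SE 0.20) and -0.75 (SE 0.19). Ccdc33, 168 kb before Islr2, was at 0.146 ± 0.103 CPM in NZO/HlLtJ against 3.15 ± 3.94 and 2.94 ± 5.61 CPM (edgeR adjusted p of 0.00322 and 0.00113). The antisense gene Gm16130 beside them was at 0.0143 ± 0.0405 CPM in NZO/HlLtJ against 1.44 ± 1.69 CPM in C57BL/6J and 0.277 ± 0.390 CPM in CAST/EiJ, and passed against both. For Ccdc33 and Gm16130 the SD in C57BL/6J and in CAST/EiJ was above the mean, so these means rest on uneven libraries. The part of oviduct RNA, itself uneven between libraries, in these levels was not tested. The noncoding gene Gm17322 was lower by log2 differences of -2.57 and -1.03, while Rec114, of meiotic recombination, was higher by 1.32 and 1.33. Cd276 lay between the strains (0.61 and -0.67). Pml, the nearest gene on the other side of Islr2, had log2 differences of -0.20 and 0.05, of which the first passed.

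Around Eps8l1, the nearest genes Rdh13 and Ppp1r12c differed by 0.21 (SE 0.06) and -0.14 (SE 0.04) on the log2 scale from C57BL/6J, and the antisense gene Gm15494, which shares 59 exonic bases with it, was at 0.168 ± 0.0831 CPM in NZO/HlLtJ and 0.0190 ± 0.0206 CPM in C57BL/6J. Of the other neighbours of Eps8l1 that passed against both strains, Dnaaf3, Shisa7, Isoc2a and Ube2s were lower in NZO/HlLtJ, by log2 differences of -1.19, -1.17, -0.70 and -0.27 from C57BL/6J and -1.68, -3.38, -1.20 and -0.28 from CAST/EiJ. Shisa7 was at 2.62 ± 0.689 CPM in NZO/HlLtJ, 5.94 ± 1.53 CPM in C57BL/6J and 43.6 ± 64.1 CPM in CAST/EiJ, where the SD was above the mean. Dnaaf3 was at 1.59 ± 0.293, 3.63 ± 1.03 and 5.12 ± 3.07 CPM in the same order. The part of oviduct RNA in these levels was not tested. Ncr1 and Fam71e2 were higher in NZO/HlLtJ, by 1.10 and 1.51 from C57BL/6J and by 4.05 and 3.21 from CAST/EiJ. Isoc2b and Lair1 lay between the strains, at -0.60 and -0.82 from C57BL/6J and 1.18 and 0.75 from CAST/EiJ.

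For each of the 8 genes, the 2 genes with the most similar levels over the 23 libraries were looked up among 16573 genes by Pearson correlation of log2 CPM. A high r here mostly restates strain levels, since the strains differ in many genes. Sstr1 was most like Zfp949 (r of 0.95), at 175.8 ± 31.4 CPM in NZO/HlLtJ against 17.7 ± 1.88 and 16.5 ± 1.61 CPM in C57BL/6J and CAST/EiJ, and Hist2h2aa2 (0.95). Zfp607 and Fggy were both most like the pseudogene RP23-73F23.5 (both r of 0.99) and Tceanc2 (both r of 0.98), which was at 2.42 ± 0.556 CPM in NZO/HlLtJ and 32.8 CPM in each of the other strains. Tceanc2 is on chromosome 4, as is Fggy. Paqr9 was most like the oocyte genes Obox2 and Oog1 (both r of 0.97). Obox2 had 0 counts in 8 of 8 NZO/HlLtJ libraries and 14.0 ± 4.64 and 5.08 ± 1.34 CPM in C57BL/6J and CAST/EiJ; both belong to families of near copies, so their counts are uncertain. Mrap2 was most like H2-Ea-ps and Lonrf2 (both r of 0.96), Ctnna2 like Lefty1 (0.96) and Gm5345 (0.95), Islr2 like Fam177a (0.95) and Tpm3 (0.93), and Eps8l1 like 2610035D17Rik (0.94) and Ly6c1 (0.90).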

How the data were processed

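The 8 genes, the lists and the tests were chosen with earlier results of these data known. The authors deposited estimated counts per gene, 27.4% of them not whole numbers, and variance-stabilised log2 values, used here only as an alternative. Per the submitters' processing notes the genome build was GRCm38 and DESeq2 was used; the aligner, counter, annotation release and whether strain sequence was used in alignment are not given in the sources used here. Every gene in the deposited table was above 0 in at least 12 libraries, so a gene detected only in the 8 NZO/HlLtJ libraries could not be listed.

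Counts were rounded. Low genes were removed with the filterByExpr function of edgeR (group-aware, count of 10, total of 15), which left 20189 of 24716 genes (81.7%). After TMM scaling, all 23 libraries entered one robust quasi-likelihood fit (edgeR) with a mean for each of the 6 groups. Contrasts were diet per strain, differences in diet response, and strain, as the average of both diets. P-values were adjusted by Benjamini-Hochberg across the 20189 genes and called under 0.05. The common biological coefficient of variation was 0.268. Log2 CPM used a prior count of 2. The 3-count floors cover counting error only, while SEs come from the fit and include spread between libraries. Within groups, the chi-square per degree of freedom between 33 pairs of libraries ran from 12.4 to 219.7, so no pair agreed within sampling noise. In simulated data for diet in NZO/HlLtJ (19928 genes), 58% of changes of 1 log2 unit and 84% of 2 log2 units were recovered, with 4 unchanged genes called. The changed genes were drawn at random from those that passed the filter. Recovery for genes as low as Zfp607 and Paqr9 in NZO/HlLtJ was not looked at apart, so these shares do not apply to them.

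Named genes are the 8, up to 4 genes per list of relatives with the smallest p against C57BL/6J and family members by name, the nearest tested gene on each side, neighbours past the threshold in both NZO/HlLtJ contrasts, and the 2 most correlated genes. Genes inside or overlapping the 8 and further genes of the Zfp607 cluster were named after their values were seen. Positions came from the deposited annotation, with gene types, overlaps and exon lengths from GENCODE M21 and upstream windows from RefSeq. Alternatives were DESeq2, RLE scaling, a fit without the filter, a fit of the compared groups alone, the library identifier series (76, 82 and 90, of unstated meaning) as a term, limma on the variance-stabilised values, leaving out each library, or both libraries high in oviduct RNA, and for strain differences a prior count of 0.5 and values within each identifier series. The software was DESeq2 1.42.0, limma 3.58.1 and edgeR 4.0.16, run in R 4.3.3.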

Additional observations from a re-analysis of the deposited data

Results flagged for a closer look

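Of 40 sets of 4 libraries (8 genes in 5 groups), 2 held a library far from the other 3, and chance flags about 1 in 20. Sstr1 was at 0.0282 CPM in C57BL/6J 44% fat replicate 2, from 1 count, against 0.138 to 0.151 CPM in the other 3. Eps8l1 was at 10.1 CPM in CAST/EiJ 10% fat replicate 2, against 0.657 to 1.96 CPM in the other 3, and that library had oviduct and white adipocyte marker scores of 4.66 and 6.59 on the log2 scale; their part in the Eps8l1 level was not tested. The diet response of Fggy differed between CAST/EiJ and C57BL/6J by 0.81 on the log2 scale (edgeR adjusted p of 0.0552): every CAST/EiJ library on 44% fat lay above every one on 10% fat, and every C57BL/6J library on 44% fat lay below every one on 10% fat.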

How the results depend on the processing

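No paired analysis was possible because the labels give no replicate numbers, and replicates were numbered in deposit order; the identifier series, which no label ties to an animal or day, was a term in one alternative and changed no call. Of 24 diet fold changes under 717 alternatives in all, 709 values kept direction and side of the threshold, 1 passed (Mrap2 in C57BL/6J without 10% fat replicate 2, 1.93) and 7 changed sign, all of them far from the threshold. Leaving out one library moved the number of the 8 genes called for diet in C57BL/6J between 0 and 1, and for the response difference of CAST/EiJ and C57BL/6J between 0 and 1. DESeq2 called 1 for the response differences of NZO/HlLtJ and CAST/EiJ and of CAST/EiJ and C57BL/6J, and limma on variance-stabilised values 1 for the latter. The shares of all genes called by these methods are not given here. The related genes called between NZO/HlLtJ and C57BL/6J ranged from 16 to 38 with one library left out, and the share of all genes in those fits is not given here. With one library left out, diet fold changes that changed sign ranged from -0.12 to 0.29 for Mrap2 in CAST/EiJ (negative without 44% fat replicate 2), -0.0891 to 0.13 for Zfp607 in CAST/EiJ (negative without 10% fat replicate 4 and, at -0.04, 44% fat replicate 2), -0.24 to 1.53 for Paqr9 in C57BL/6J (negative without 10% fat replicates 1 and, at -0.16, 3), -0.86 to 0.43 for Islr2 in C57BL/6J (positive without 10% fat replicate 1) and -0.67 to 0.0921 for Islr2 in NZO/HlLtJ (positive without 10% fat replicate 3). Sign also changed for the Fggy response difference of NZO/HlLtJ and C57BL/6J in limma (0.18); and for the Eps8l1 difference of NZO/HlLtJ and CAST/EiJ within identifier series 90 (0.24). Values within a series also mix diets. In series 90 the NZO/HlLtJ libraries were all on 44% fat and those of CAST/EiJ on both diets, so strain and diet cannot be told apart there. The cause of the sign changes was not tested. Of 480 values of 16 strain differences under alternatives, 453 moved by less than 1 SD, 26 moved by more than 1 SD and kept their sign, and 1 was the Eps8l1 reversal. The variance-stabilised scale has a floor and gave smaller differences for low genes, such as -2.13 against -6.03 for Zfp607 between NZO/HlLtJ and C57BL/6J. Depth limits Zfp607 in NZO/HlLtJ and Sstr1 in C57BL/6J and CAST/EiJ, at 12 counts or fewer per library.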
